A study of Mus musculus with 22 samples.

Results

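The genes described here are 9 transporters and channels of the absorptive surface of the small intestine, namely Slc5a1, Slc2a2, Slc2a5, Slc15a1, Slc6a19, Slc9a3, Slc26a3, Cftr and Scnn1a. They were chosen by name and not by a rule on their measured values, though with earlier results of these data known, and were found by their Ensembl identifiers among the 54838 genes of the count table. All 9 passed the filter on low counts, as did 16868 genes in all. On normal drinking water, 7 of the 9 were lower in the intestine of GRDim mice than in that of GRWT mice, where 15.1% of all genes tested were lower and 31.1% changed in either direction, from 1.3-fold lower for the glucose transporter Slc5a1 to a near loss of the hexose transporter Slc2a2 in muscle-rich libraries. The sodium/proton exchanger Slc9a3 went the other way and was 2.57-fold higher in GRDim mice, and the sodium channel subunit Scnn1a did not pass the test in any comparison. Zinc in the drinking water raised the peptide transporter Slc15a1 and the chloride/bicarbonate exchanger Slc26a3 in GRDim mice, where 10.2% of all genes were called, and none of the 9 passed the test for zinc in GRWT mice, where 0.468% were.

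RNA was sequenced in bulk from small intestine. The mice were females of 8 to 14 weeks, kept in a conventional animal house. Their strain is FVB/N by the labels, and the study's methods give the breeding stock as FVB/NJ. GRWT mice carry the wild-type glucocorticoid receptor, and GRDim mice carry on both alleles, in all cells of the body, a point-mutant receptor that forms fewer homodimers; both came from intercrosses of GRDim/+ parents. Drinking water was plain or held 25 mM ZnSO4 for 7 days, with 5 libraries on water and 5 on zinc from the GRWT genotype and 6 on water and 6 on zinc from the GRDim genotype. The labels call 12 libraries ileum and 10 IEC, for intestinal epithelial cells, and none of them names dexamethasone, which the description of the series mentions. The labels do not state that replicates were separate animals, so p-values measure the spread between these libraries only. Because the mutation is present in every tissue, a difference that arises in the intestine and a difference that arises elsewhere cannot be told apart.

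Enterocytes take up nutrients through carriers on their luminal brush border. Slc5a1 (SGLT1) carries glucose and galactose together with sodium, Slc2a5 (GLUT5) carries fructose, and Slc2a2 (GLUT2) passes hexoses on towards the blood. Slc15a1 (PEPT1) takes up small peptides with protons, and Slc6a19 (B0AT1) takes up neutral amino acids with sodium. Slc9a3 (NHE3) and Slc26a3 (DRA) together absorb sodium chloride, Cftr secretes chloride and bicarbonate mainly from the crypts, and Scnn1a encodes the alpha subunit of the epithelial sodium channel, which works mostly in the distal colon. Glucocorticoids are known to act on several of these absorptive processes, and zinc is given as a treatment in diarrhea.

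The libraries held 13149951 to 15620744 counts, and 3 counts, taken as the floor of detection, equalled 0.192 to 0.228 CPM (the usual unit of counts scaled to equal library totals). Counts carried no molecular identifiers, so floors and counting intervals cover counting error only. The tissue labels did not follow the content of the libraries. Myh11, the myosin heavy chain of smooth muscle, stood at 298.3 to 463.2 CPM in 12 libraries (7 labelled IEC and 5 labelled ileum) and at 3.22 to 20.5 CPM in the other 10 (7 labelled ileum and 3 labelled IEC). These are called muscle-rich and muscle-poor, with a cut of 100 CPM for Myh11, and all values are given apart for the classes. The summed level of 10 smooth muscle markers was 1283.2 to 2316.1 CPM in the muscle-rich libraries and 24.8 to 76.3 CPM in the muscle-poor ones, while 10 epithelial markers summed to 17651 to 20976 CPM and 21647 to 26186.5 CPM. The muscle-poor ranges are those of 9 libraries and leave out GRWT zinc ileum replicate 3, described next, with sums of 19 and 14385.3 CPM. No marker of either list was at 0 throughout a group. Muscle-poor libraries numbered 3 for GRDim mice on water, 3 for GRDim mice on zinc and 2 for GRWT mice on water, and GRWT mice on zinc had 1 besides the library described next. All 3 muscle-rich libraries of GRDim mice on water are labelled IEC and all 3 on zinc are labelled ileum, and in the muscle-poor class this is turned round, so label and zinc cannot be told apart within a class in these mice. GRWT libraries bear both labels in the muscle-rich class and are all labelled ileum in the muscle-poor class. Label is thus unevenly spread over the genotypes in the muscle-rich class. On zinc in the muscle-poor class, label and genotype cannot be told apart. For GRDim water ileum, 2 columns bear one name, and they are called unnumbered a and b. GRWT zinc ileum replicate 3 stands apart: 10 proximal small-intestine markers summed to 27308 CPM in it, against 444 to 1299 CPM in the other 21 libraries, and its Fabp6, the ileal bile acid binding protein, was 11.7 CPM. It was left out of the tests, and its values are given on their own.

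The members lie on 7 chromosomes of the mouse build GRCm38 (mm10), and only the exons of Cftr overlap another annotated gene, the antisense gene Gm15592, over 129 bases; that gene had at most 7 counts in any library. Slc5a1 is at chr5:33104219-33162870, Slc2a2 at chr3:28697903-28731359, Slc2a5 at chr4:150119283-150144169, Slc15a1 at chr14:121459621-121505252 on the minus strand and Slc6a19 at chr13:73679745-73704865 on the minus strand. Slc9a3 is at chr13:74121457-74169442, Slc26a3 at chr12:31390871-31473917, Cftr at chr6:18170687-18322768 and Scnn1a at chr6:125320659-125344943, all on the plus strand, as are the first 3. RefSeq promoters of the same assembly (GRCm38.p6) were matched for 8 of the 9; for Slc2a5, Slc26a3 and Slc6a19 the RefSeq start lies inside the span given above. The 250 bases before the start of Slc9a3 (chr13:74121163-74121412, plus strand) and of Slc15a1 (chr14:121505255-121505504, minus strand) are shown, because these 2 genes moved in opposite directions with genotype on water and, by their values, with zinc in GRDim mice. Capitals mark the core letters of the metal response element bound by the zinc-sensing factor MTF1, searched as TGCACNC or TGCGCNC on both strands.
Slc9a3: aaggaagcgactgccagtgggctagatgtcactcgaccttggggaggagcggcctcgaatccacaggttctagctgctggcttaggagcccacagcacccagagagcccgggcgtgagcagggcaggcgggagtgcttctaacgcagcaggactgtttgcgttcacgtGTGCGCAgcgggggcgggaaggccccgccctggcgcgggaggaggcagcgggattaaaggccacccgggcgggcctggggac
Slc15a1: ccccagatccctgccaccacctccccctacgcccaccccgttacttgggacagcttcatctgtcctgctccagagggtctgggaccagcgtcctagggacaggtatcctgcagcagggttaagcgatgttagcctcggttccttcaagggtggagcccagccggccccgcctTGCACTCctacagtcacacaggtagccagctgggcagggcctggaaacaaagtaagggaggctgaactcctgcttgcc
The letters begin 82 bases before the start of Slc9a3 and 78 bases before that of Slc15a1, and Cftr holds them as well, starting 156 bases before its start. They occur in 3 of the 8 member windows and in 21.4% of all 32851 windows of this length. TGTTCT, an arm of the glucocorticoid response element, was searched on both strands too and occurs in the windows of Slc5a1 and Slc6a19 and in 16.1% of all windows. A match is a description of letters and not a binding site.

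Levels are first given per kilobase of exon, so that genes can be compared. In the 3 muscle-rich libraries of GRWT mice on water, Slc5a1 had the highest level with a mean of 215 CPM per kilobase (207.7 to 222). Slc6a19 followed with 174.8 (155.2 to 196.8) and Slc15a1 with 100.3 (85 to 124.1), and the ranges of these 3 nutrient carriers do not overlap. Cftr (mean 31.5, range 28.6 to 33.2) and Slc26a3 (29.4 to 30.6) formed a middle pair that overlaps. Slc2a5 at 3.99, Scnn1a at 2.77 and Slc9a3 at 2.41 CPM per kilobase overlap with their neighbours in this order, and Slc2a2 was lowest at 0.924. In the corresponding GRDim libraries Slc9a3 stood at 8.55 CPM per kilobase (7.71 to 9.49), above Scnn1a at 2.76 and Slc2a5 at 1.41, without overlap, and Slc2a2 at 0.0207. Slc5a1, Slc6a19 and Slc15a1 held the first 3 places in both genotypes, while Slc9a3 stood eighth of 9 in GRWT mice and sixth in GRDim mice.

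**Figure D1:**
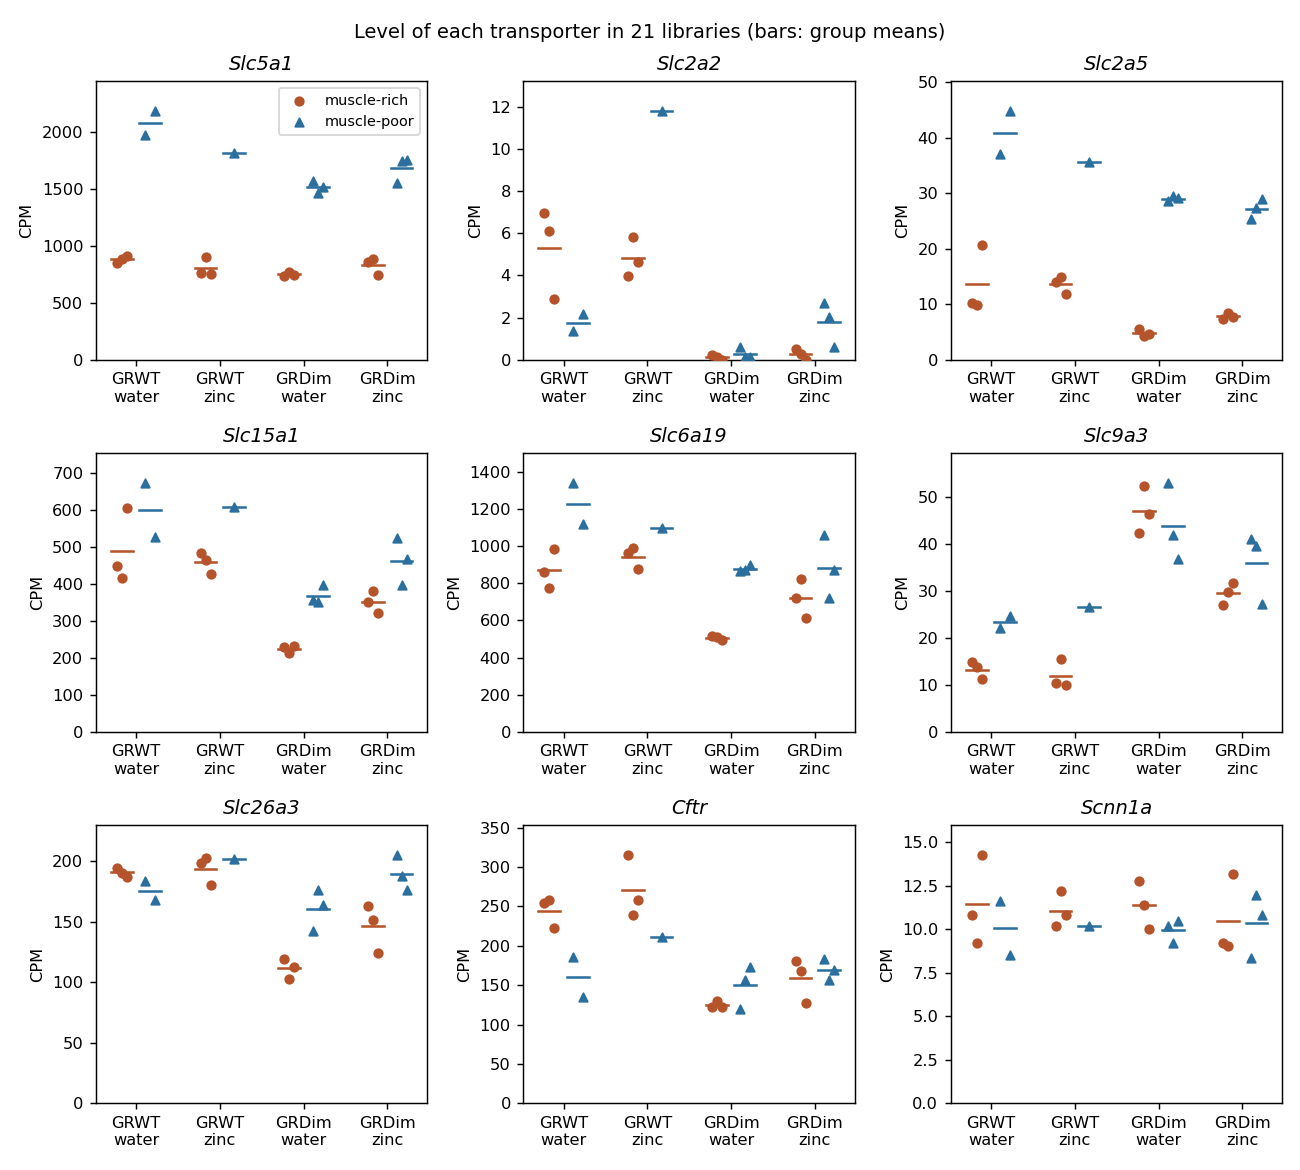
CPM (y axis, linear, from 0) of each of the 9 genes in 21 libraries, by genotype and drinking water (x axis), with circles for muscle-rich and triangles for muscle-poor libraries and bars for group means. Slc9a3 lies at 36.8 to 53.1 CPM in all GRDim water libraries and at 11.2 to 24.7 CPM in those of GRWT mice on water, while Scnn1a stays between 8.38 and 14.3 CPM everywhere.

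The levels differed between the muscle classes to an extent that varied by gene and condition, which is described here without a test since the classes were cut from the data. In GRDim mice on water, the muscle-poor mean was 6.05 times the muscle-rich mean for Slc2a5, 2.02 times for Slc5a1, 1.74 times for Slc6a19 and 1.64 times for Slc15a1. For Slc26a3 and Cftr it was 1.44 and 1.2 times, and for Slc9a3 and Scnn1a 0.934 and 0.873 times. The ratio of Slc9a3 in GRWT mice was higher, with 1.77 times in GRWT mice on water and 2.22 times in GRWT mice on zinc. Slc2a2 gave 0.33 times in GRWT mice on water and 2.45 times in those on zinc, and its counts in muscle-rich GRDim libraries on water were too few for a ratio. GRWT mice on water gave 3.01 times for Slc2a5 and 2.35 times for Slc5a1, but 0.656 times for Cftr, whose level was higher in their muscle-rich libraries. Relative to the epithelial markers, the ratios in GRDim mice on water were 4.88 for Slc2a5, 1.63 for Slc5a1 and 0.75 for Slc9a3. In bulk tissue, fewer cells of a type and less RNA per cell cannot be told apart.

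The first comparison sets GRDim against GRWT mice on normal water. In the muscle-rich class the tissue labels are not evenly spread over the genotypes, as given above. Of the 9 members, 7 fell and 1 rose at an adjusted p under 0.05 in the fit of 21 libraries with the muscle class as covariate. Of all 16868 genes tested, 31.1% were called in this comparison, 15.1% as lower and 16.0% as higher. The median log2 fold change of the 9 was -0.63, against -0.00 over all genes. The median is that of Cftr and does not rest on Slc2a2, whose fitted value depends on the prior count. No call among the 9 changed when any 1 of the 21 libraries was left out.

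Among the sugar carriers, Slc5a1 stood at 852.2, 884 and 910.9 CPM in the muscle-rich GRWT libraries and at 731, 765.8 and 747.1 CPM in the GRDim ones. In the muscle-poor class it stood at 1966.2 and 2181.5 CPM against 1567.5, 1459.7 and 1513.8 CPM. The genotypes did not overlap in either class, and the difference was small, a log2 fold change of -0.38 ± 0.08 (SE) with an adjusted p of 7.78e-04. It was called within the muscle-poor class (-0.55 ± 0.09, adjusted p = 0.00494) and just missed within the muscle-rich class (-0.24 ± 0.09, adjusted p = 0.051).

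Slc2a5, the fructose carrier, measured 10.2, 9.91 and 20.6 CPM in muscle-rich GRWT libraries and 5.53, 4.2 and 4.69 CPM in GRDim ones. Muscle-poor libraries held 37 and 44.8 CPM for GRWT and 28.6, 29.4 and 29.1 CPM for GRDim. All GRDim values lay below all GRWT values of their class, although GRWT water ileum replicate 1 was high at 20.6 CPM. The log2 fold change was -0.95 ± 0.20 (1.94-fold lower, adjusted p = 0.00165).

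Slc2a2 was the rarest of the 9 and the most reduced. Its counts in muscle-rich libraries were 106, 82 and 41 in GRWT mice and 3, 2 and 0 in GRDim mice, so that all 3 GRDim libraries were at or under the floor of 3 counts. Summed over libraries and scaled to their totals, the GRWT level was 46.2 times the GRDim level, with an exact 95% counting interval from 19.5 to 143.8. In the muscle-poor class the counts were 18 and 30 in GRWT mice and 8, 2 and 2 in GRDim mice, a ratio of 6.12 (3.2 to 12.7). The fitted log2 fold change of -4.45 ± 0.78 was called (adjusted p = 4.70e-04), but the muscle-poor class by itself missed the threshold (adjusted p = 0.0789).

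Of the carriers for protein digestion products, Slc15a1 showed the smallest p of the 9. Its muscle-rich GRWT libraries held 448.5, 415.3 and 606.3 CPM and the GRDim ones 228.1, 211.8 and 233.1 CPM. In muscle-poor libraries it was 674.3 and 526.2 CPM against 357.6, 349.9 and 397 CPM. No GRDim library reached a GRWT library of either class, and the log2 fold change was -0.97 ± 0.10 (1.96-fold lower, adjusted p = 4.50e-06). It was called within both classes, with -1.13 ± 0.14 (adjusted p = 7.87e-05) in muscle-rich and -0.80 ± 0.13 (adjusted p = 0.0101) in muscle-poor libraries.

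Slc6a19, the main neutral amino acid carrier, measured 863, 776.9 and 985 CPM in muscle-rich GRWT libraries against 515.8, 512.3 and 493.3 CPM in GRDim ones. The muscle-poor values were 1343.7 and 1118.7 CPM against 864.6, 874.6 and 900.8 CPM. The groups were again apart in both classes, with a log2 fold change of -0.67 ± 0.12 (1.59-fold lower, adjusted p = 3.34e-04).

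Among the ion carriers, Slc9a3 was the exception in direction. Its level in muscle-rich libraries was 14.8, 13.7 and 11.2 CPM in GRWT mice and 42.4, 52.3 and 46.5 CPM in GRDim mice. Muscle-poor libraries gave 22.1 and 24.7 CPM against 53.1, 42 and 36.8 CPM. Every GRDim library lay above every GRWT library, with a log2 fold change of 1.36 ± 0.21 and an adjusted p of 1.40e-04. The rise was larger in the muscle-rich class (1.83 ± 0.16) than in the muscle-poor class (0.81 ± 0.20), and the class difference of 1.00 ± 0.27 was itself called (adjusted p = 0.0383), as it was for 7.11% of all genes.

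Slc26a3, which exchanges chloride for bicarbonate beside Slc9a3, showed the opposite sign. In muscle-rich libraries it measured 194.6, 190.5 and 187.4 CPM in GRWT mice and 119.2, 102.6 and 112.9 CPM in GRDim mice, well apart. In muscle-poor libraries the values of 183.3 and 168.1 CPM overlapped with 142.7, 176.3 and 163.8 CPM. The log2 fold change was -0.53 ± 0.10 (1.44-fold lower, adjusted p = 4.88e-04). The class difference of -0.57 ± 0.15 was called (adjusted p = 0.0221). Fitted apart, the classes gave -0.78 ± 0.10 (muscle-rich) and -0.23 ± 0.10 (muscle-poor).

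Cftr, the chloride channel, had a like pattern. Muscle-rich GRWT libraries held 254.3, 258.1 and 222.3 CPM and GRDim ones 122.4, 130.6 and 122.8 CPM, without overlap. The muscle-poor libraries overlapped, with 186.1 and 135.3 CPM against 120, 156.8 and 173.8 CPM. The log2 fold change was -0.63 ± 0.15 (1.55-fold lower, adjusted p = 0.00403), and the class difference of -0.79 ± 0.24 missed the threshold (adjusted p = 0.0624).

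Scnn1a was the one member with no call. It measured 10.8, 9.24 and 14.3 CPM in muscle-rich GRWT libraries and 12.8, 11.4 and 10 CPM in GRDim ones, and 11.6 and 8.51 CPM against 10.2, 9.22 and 10.5 CPM in the muscle-poor class. The groups overlapped in both classes. The log2 fold change was -0.06 ± 0.13, and its approximate 95% interval ran from -0.30 to 0.19.

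**Figure D2:**
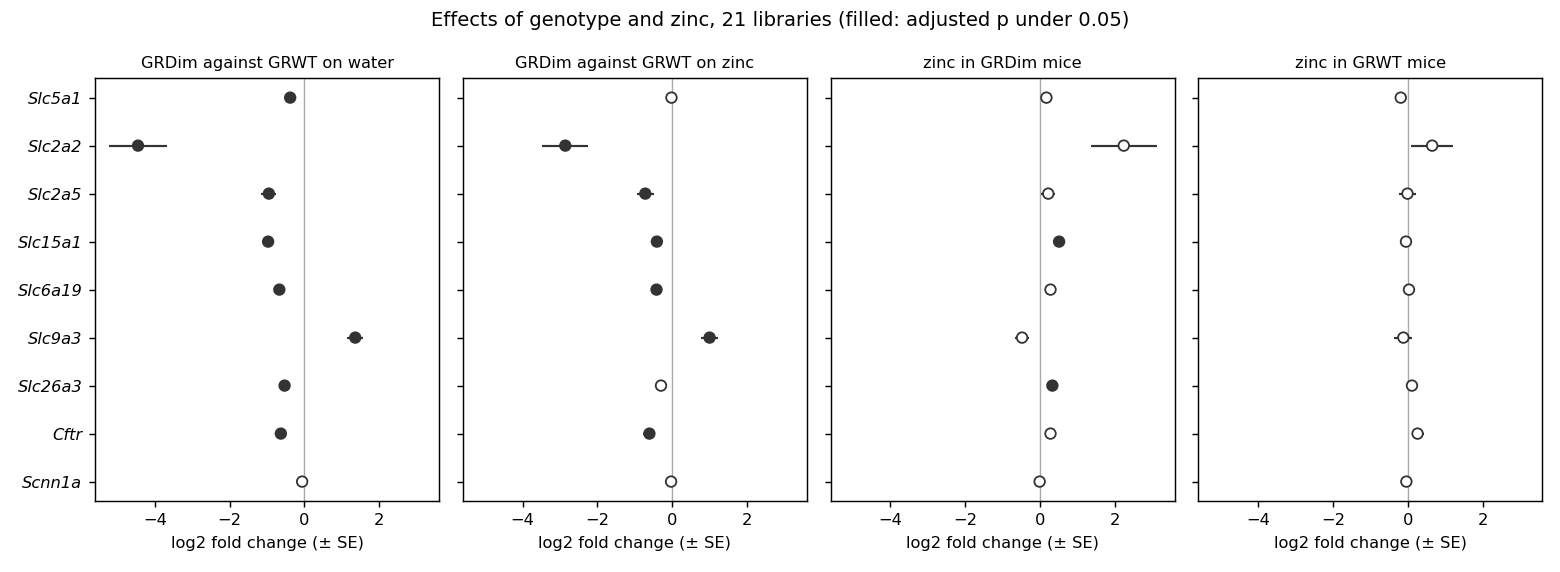
Log2 fold changes (x axis) with their SE of the 9 genes (y axis) for genotype on water, genotype on zinc, zinc in GRDim mice and zinc in GRWT mice, from the fit of 21 libraries; filled points passed an adjusted p of 0.05. The first panel holds 8 filled points, with Slc9a3 at 1.36 the only one to the right of 0, and the last panel holds none.

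Taken by class, the muscle-rich libraries alone called 7 of the 9 for genotype on water, where 38.7% of 15947 genes were called, and missed Slc5a1 and Scnn1a. Slc5a1 passed there without GRDim zinc ileum replicate 3 (adjusted p = 0.0266), GRWT zinc IEC replicate 5 (0.0201) or GRWT zinc ileum replicate 1 (0.0284). The muscle-poor libraries alone called Slc5a1, Slc2a5 and Slc15a1, where 3.16% of 14339 genes were called; there Slc2a5 was lost without GRWT water ileum replicate 3 (adjusted p = 0.073) and Slc15a1 without GRWT water ileum replicate 2 (adjusted p = 0.139), GRDim water ileum replicate 1 (0.0562) or unnumbered a (0.0597). In turn Slc2a2, Slc6a19 and Slc9a3 were each gained there without 1 of 2 single libraries, at adjusted p of 0.00971, 0.007 and 0.0118 at the lowest (without GRDim zinc IEC replicate 6, 4 and 6). All 9 log2 fold changes had the same sign in both classes. With GRWT zinc ileum replicate 3 kept in the fit, 5 of the 9 were called on water, and Slc5a1 (adjusted p = 0.326), Slc2a5 (0.0878) and Slc9a3 (0.119) no longer passed. The share of all genes called in that fit is not given here.

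Markers of other cells and of gut segments moved with genotype as well. Of the 10 smooth muscle markers, 4 were called lower in GRDim mice, with sums of 1570.3 to 1779.9 CPM against 2112.2 to 2316.1 CPM in muscle-rich libraries, and 2 of the 10 epithelial markers were called higher and 2 lower. The summed level of 8 ileal segment markers was 6709.3 to 8180.1 CPM in muscle-rich GRDim and 11083.8 to 12621.1 CPM in muscle-rich GRWT libraries on water, and 12258.1 to 13250.9 against 15098.8 to 15159.1 CPM in the muscle-poor class; 6 of the 8 were called lower, and none was at 0. The 10 proximal markers summed to 444 to 517.1 CPM in muscle-rich GRDim and 843 to 896.6 CPM in muscle-rich GRWT libraries, with 3 called lower and 1 higher. In the muscle-poor class their sums overlapped, with 745 to 774.5 CPM in GRDim and 641.7 to 814.8 CPM in GRWT libraries. Of the 8 crypt and proliferation markers, 5 were called higher and 1 lower in GRDim mice, with muscle-rich sums of 1375.2 to 1410.5 against 1173.5 to 1429.8 CPM. Car1, a carbonic anhydrase of the colon, stood at 6.16, 3.4 and 6.83 CPM in the muscle-rich GRDim water libraries and 10.3 CPM in GRDim zinc ileum replicate 3, with at most 2.43 CPM in any other; Hoxb13, Hoxd12 and Hoxd13 were at 0 in all muscle-rich GRDim libraries. The 10 liver markers summed to 10.2 to 147.7 CPM in muscle-rich GRDim and 8.22 to 23.6 CPM in muscle-rich GRWT libraries on water, and to 2.82 to 5.18 against 2.5 to 2.59 CPM in muscle-poor ones; none of the 10 was at 0 in the muscle-rich groups. Their part in the differences of the 9 genes was not tested. Without the 4 libraries with Car1 over 3 CPM, which takes away every muscle-rich GRDim library on water, Slc5a1, Slc2a2, Slc15a1 and Slc9a3 remained called.

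In GRDim mice, zinc raised Slc15a1 and Slc26a3 and no member fell past the threshold. So 2 of the 9 were called, against 10.2% of all genes, of which 5.95% were higher. The median log2 fold change of the 9 was 0.28, against -0.01 over all genes, and 6 of them had an unadjusted p under 0.05, as did 4266 of all 16868 genes.

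Slc15a1 went from 228.1, 211.8 and 233.1 CPM on water to 351.2, 380.3 and 321.3 CPM on zinc in muscle-rich libraries. In muscle-poor libraries it went from 357.6, 349.9 and 397 CPM to 524.1, 397.9 and 468.4 CPM. Zinc values lay above water values in both classes, narrowly so in the muscle-poor one, by a log2 fold change of 0.51 ± 0.10 (1.42-fold, adjusted p = 0.00368) that kept its call without any 1 library. On zinc it remained 1.33-fold below the level of GRWT mice (adjusted p = 0.0306).

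Slc26a3 rose from 119.2, 102.6 and 112.9 CPM to 162.8, 151.6 and 124.2 CPM in muscle-rich libraries. In the muscle-poor ones the change from 142.7, 176.3 and 163.8 CPM to 205.6, 187.5 and 175.9 CPM overlapped. The log2 fold change of 0.33 ± 0.09 (adjusted p = 0.0261) lost its call without GRDim water IEC replicate 5 (adjusted p = 0.0594) or 6 (0.0566), GRDim water ileum replicate 1 (0.0502), GRDim zinc IEC replicate 4 (0.0666) or GRDim zinc ileum replicate 1 (0.0592).

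The other members did not pass in this fit. Slc9a3 measured 27.1, 29.8 and 31.8 CPM on zinc in muscle-rich libraries, below each of the water values of 42.4, 52.3 and 46.5 CPM, and 41, 39.6 and 27.3 CPM against 53.1, 42 and 36.8 CPM in muscle-poor ones. Its log2 fold change was -0.48 ± 0.19 (adjusted p = 0.111), and it was called without GRDim water ileum unnumbered b (adjusted p = 0.0475). Slc2a2 had counts of 7, 4 and 0 in muscle-rich and 37, 28 and 8 in muscle-poor libraries on zinc, with a fitted log2 fold change of 2.24 ± 0.89 (adjusted p = 0.118). DESeq2 called Slc2a2 (2.14 ± 0.77, adjusted p = 0.0404), and 3 of the 9 in all for zinc in GRDim mice. The share of all genes called by DESeq2 is not given here. Slc6a19 gave 0.28 ± 0.11 (adjusted p = 0.115), with a call once GRDim zinc IEC replicate 5 was left out (adjusted p = 0.0287). Slc5a1, Slc2a5 and Cftr had values of 0.17 ± 0.07, 0.22 ± 0.19 and 0.28 ± 0.14, and Scnn1a -0.01 ± 0.12.

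**Figure D3:**
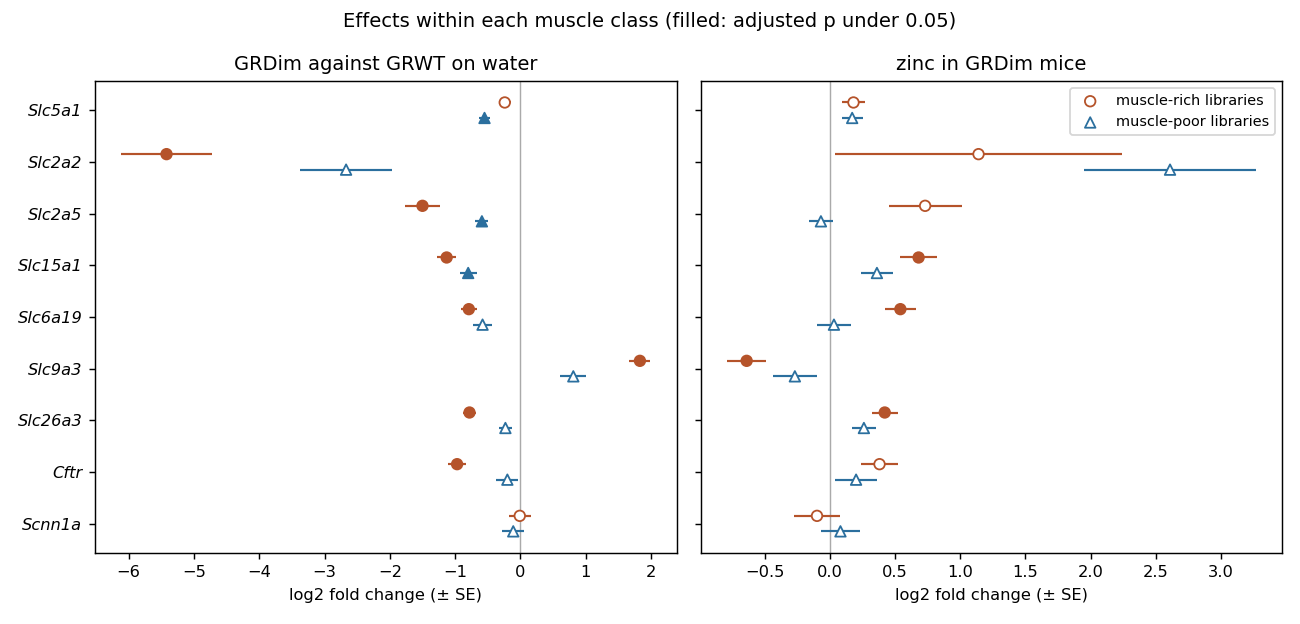
Log2 fold changes (x axis) with their SE of the 9 genes (y axis), fitted in muscle-rich (circles) and muscle-poor (triangles) libraries apart, for genotype on water (left) and zinc in GRDim mice (right); filled points passed an adjusted p of 0.05. On the left Slc9a3 lies at 1.83 in muscle-rich and 0.81 in muscle-poor libraries, and on the right 4 circles and no triangle are filled.

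In the muscle-rich libraries alone, zinc in GRDim mice called 4 of the 9 where 7.70% of all genes were called, namely Slc15a1 (0.68 ± 0.14, adjusted p = 0.0142), Slc6a19 (0.54 ± 0.12, adjusted p = 0.0153) and Slc26a3 (0.42 ± 0.10, adjusted p = 0.0263) as higher and Slc9a3 (-0.64 ± 0.15, adjusted p = 0.0239) as lower. Slc6a19 went there from 515.8, 512.3 and 493.3 CPM to 723.3, 826.4 and 616 CPM, without overlap. These calls were lost without GRDim water IEC replicate 5 (adjusted p of 0.0619, 0.0562, 0.106 and 0.0945 in the order above), and without GRDim zinc ileum replicate 1 or 2; all but that of Slc15a1 were also lost without GRDim water IEC replicate 6. Cftr was gained there without GRDim zinc ileum replicate 3 (adjusted p = 0.0057) and Slc2a5 without GRWT water ileum replicate 1 (0.00762). In the muscle-poor libraries alone 0 of the 9 were called by edgeR, where 5.15% of all genes were, and 4 of the 9 had an unadjusted p under 0.05, as did 3165 of all 14339 genes; Slc2a2 (adjusted p = 0.0507) passed without GRDim zinc IEC replicate 6 (0.00329) or GRWT zinc ileum replicate 2 (0.0438), and DESeq2 was run on the 21 libraries only. The class difference of the zinc effect was not called for any of the 9, and the smallest p of the 9 belonged to Slc6a19 (0.53 ± 0.19, adjusted p = 0.546). With GRWT zinc ileum replicate 3 in the fit, or without the 4 libraries with Car1 over 3 CPM, 0 of the 9 were called for zinc in GRDim mice, with Slc15a1 at 0.53 ± 0.19 (adjusted p = 0.179) and 0.38 ± 0.13 (adjusted p = 0.167). The shares of all genes called in these fits are not given here. Of the 8 ileal markers, 3 were called higher with zinc in GRDim mice and 5 were not called; their sums of 7502.5 to 11997 CPM in muscle-rich libraries overlapped with those on water, and the 13451.1 to 15177.4 CPM in muscle-poor ones lay above them, and 3 of the 10 proximal markers were called higher. Of the 8 crypt and proliferation markers 2 were called lower, Ccnb1 (-0.39) and Cdk1 (-0.25), and of the 10 liver markers Ttr was called higher (1.05), with liver sums of 9.72 to 396.8 CPM on zinc in muscle-rich libraries. The part of these markers was not tested.

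In GRWT mice, zinc moved 0 of the 9 past the threshold with edgeR and with DESeq2, and 1 of the 9, Slc5a1, had an unadjusted p under 0.05 (log2 fold change -0.19 ± 0.08, adjusted p = 0.42). Few genes of any kind were called here, 0.468% of all tested. In the muscle-rich class the zinc libraries of Slc15a1 held 484.7, 465.4 and 425.9 CPM against 448.5, 415.3 and 606.3 CPM on water, and those of Slc9a3 held 10.4, 15.5 and 9.96 CPM against 14.8, 13.7 and 11.2 CPM. Both genes overlapped between water and zinc. Slc26a3 was at 198.8, 202.9 and 180.2 CPM on zinc and Cftr at 316, 239.1 and 258.8 CPM, overlapping with water as well. For Slc15a1 the approximate 95% interval of the log2 fold change ran from -0.28 to 0.17, and for Slc9a3 from -0.58 to 0.34. The muscle-rich libraries alone called 0 of the 9 by edgeR, with 0.383% of all genes called and 0 of the 9 at an unadjusted p under 0.05. The 1 muscle-poor zinc library left, GRWT zinc ileum replicate 2, allows no replicate check: it held 1810.1 CPM of Slc5a1, 608 CPM of Slc15a1 and 26.5 CPM of Slc9a3, and its 167 counts of Slc2a2 (11.8 CPM) were the most of any of the 21 libraries.

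Whether zinc acted differently in the 2 genotypes was asked with the interaction term, which called 0 of the 9 with edgeR and 0.0119% of all genes. Slc15a1 (0.56 ± 0.15, adjusted p = 0.296) and Slc5a1 (0.36 ± 0.11, adjusted p = 0.296) had an unadjusted p under 0.05, and these 2 were called by DESeq2 (adjusted p of 0.0207 and 0.0332). The share of all genes DESeq2 called for the interaction is not given here. The zinc values of Slc15a1 were -0.05 ± 0.12 in GRWT and 0.51 ± 0.10 in GRDim mice, and those of Slc5a1 were -0.19 ± 0.08 and 0.17 ± 0.07, of like size and opposite sign. A difference in the response to zinc is thus not shown by the main test.

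On zinc, the genotypes were compared once more, which shares no libraries with the comparison on water but is fitted with the same spread. Of the 9, 5 were lower and 1 was higher in GRDim mice, against 8.36% of all genes called, of which 3.73% were lower. Slc9a3 stood at 27.1 to 31.8 CPM against 9.96 to 15.5 CPM in muscle-rich libraries, without overlap, a log2 fold change of 1.00 ± 0.22 (adjusted p = 0.0141) in the fit of both classes. In the muscle-poor class Slc9a3 stood at 27.3 to 41 CPM against 26.5 CPM in the 1 GRWT library, a log2 fold change of 0.40. Slc2a2 was at 7, 4 and 0 counts against 62, 80 and 64 in muscle-rich libraries. There the GRWT level was 18.4 times the GRDim level (counting interval 10.1 to 37.4). In the muscle-poor class, with 8 to 37 counts against 167 in the 1 GRWT library, the ratio was 6.6. The fit of both classes gave -2.86 ± 0.61 for Slc2a2 (adjusted p = 0.0115). Cftr stood at 181.4, 168.7 and 127.3 CPM against 316, 239.1 and 258.8 CPM in muscle-rich libraries (-0.61 ± 0.16, adjusted p = 0.0261). Slc2a5 (-0.72 ± 0.22), Slc6a19 (-0.42 ± 0.13) and Slc15a1 (-0.41 ± 0.11) passed with adjusted p of 0.0476, 0.0443 and 0.0306. Slc5a1, which was called on water, had a log2 fold change of -0.02 ± 0.08 here with an interval from -0.17 to 0.14, and Slc26a3 missed the threshold (-0.30 ± 0.11, adjusted p = 0.0749).

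These calls lie close to the threshold. That of Slc2a5 was lost in 14 and that of Slc6a19 in 13 of the 21 fits that leave out 1 library, with adjusted p of up to 0.129 (without GRWT zinc IEC replicate 4) and 0.123 (without GRWT zinc IEC replicate 5). Slc15a1 was lost without GRWT zinc IEC replicate 4 (0.094) or 5 (0.0813) or GRDim zinc ileum replicate 3 (0.0756). Cftr was lost without GRWT zinc IEC replicate 4 (0.094) or GRDim zinc ileum replicate 2 (0.0513) or 3 (0.0639), Slc9a3 without GRWT zinc IEC replicate 4 (0.0544) and Slc2a2 without GRWT zinc ileum replicate 2 (0.0588), while Slc26a3 was gained without GRWT water ileum replicate 3 (0.0437). The muscle-rich libraries alone called 5 of the 9, Slc2a2, Slc6a19, Slc9a3, Slc26a3 and Cftr, where 18.8% of all genes were called; the call of Slc26a3 was lost without GRWT zinc IEC replicate 4 or 5 and that of Slc6a19 in 8 of the 12 fits that leave out 1 library (adjusted p up to 0.129). In these fits Slc15a1 was gained without 2 libraries (lowest adjusted p 0.00461) and Slc2a5 without 3 (0.0012), both lowest without GRWT water ileum replicate 1. Markers moved with genotype on zinc as well, with 3 crypt markers called higher and 1 lower, 2 epithelial markers higher, 1 ileal marker lower, and 1 proximal and 1 liver marker (Ttr) higher. Muscle-rich ileal sums were 7502.5 to 11997 CPM in GRDim and 12338.1 to 14413.7 CPM in GRWT mice, without overlap, and the part of these markers was not tested. Keeping GRWT zinc ileum replicate 3 turned Slc9a3 to -0.68 (adjusted p = 0.481).

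That library, GRWT zinc ileum replicate 3, held the highest level of 6 of the 9 genes. Slc2a2 reached 674.6 CPM, 57.2 times the 11.8 CPM of GRWT zinc ileum replicate 2, the only other muscle-poor library of its condition. Slc9a3 reached 193.1 CPM (7.3 times), Slc2a5 224.6 CPM (6.3 times) and Slc5a1 4763.9 CPM (2.63 times). Slc6a19 and Slc15a1, at 2055.4 and 1128 CPM, were 1.87 and 1.86 times as high. All 6 exceeded every other library, whose highest values were 11.8, 53.1, 44.8, 2181.5, 1343.7 and 674.3 CPM in this order. Slc26a3 at 182.7 CPM and Cftr at 133.7 CPM lay inside the range of the others, and Scnn1a at 8.35 CPM lay just under its lowest value of 8.38 CPM. The library had 2294.4 CPM of summed ileal markers, against 6709.3 to 15177.4 CPM elsewhere, and 249.2 CPM of summed crypt and proliferation markers, against 1148 to 1452.5 CPM.

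**Figure D4:**
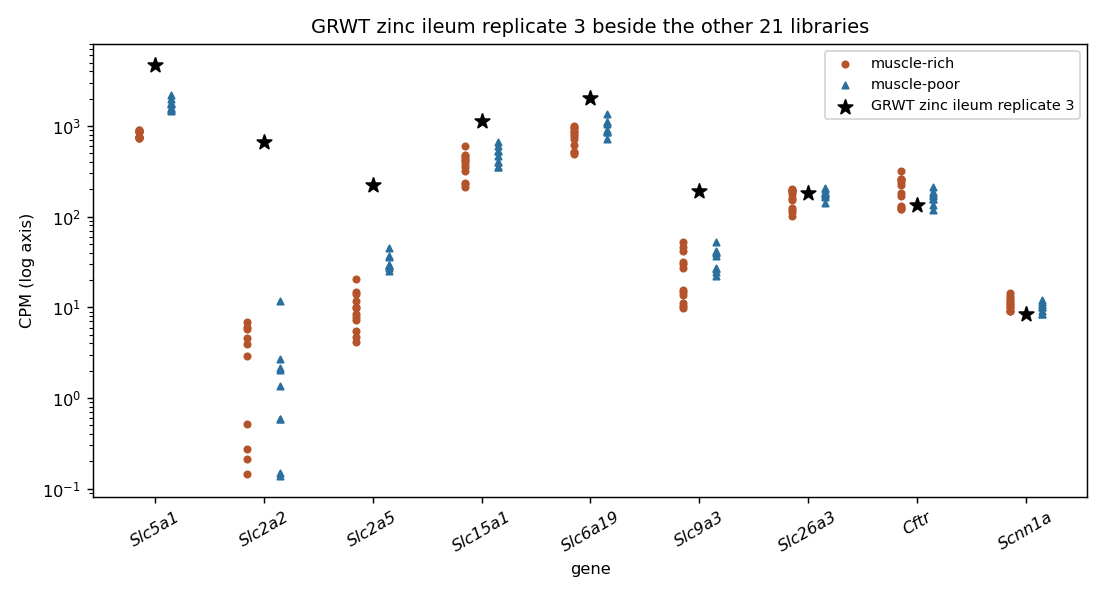
CPM (y axis, logarithmic) of the 9 genes (x axis) in GRWT zinc ileum replicate 3 (stars) beside the muscle-rich (circles) and muscle-poor (triangles) libraries; 2 libraries with 0 counts of Slc2a2 cannot be drawn. The star lies above all other points for Slc5a1, Slc2a2, Slc2a5, Slc15a1, Slc6a19 and Slc9a3 and among them for Slc26a3 and Cftr.

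The pathways around the 9 genes were followed in lists of other transport genes, described by their counts and medians. The shares of all genes called, against which these counts are read, are those above: 31.1% for genotype on water, 10.2% for zinc in GRDim mice and 8.36% for genotype on zinc. Of 15 other genes of sugar handling, 9 were lower and 1 was higher in GRDim mice on water, with a median log2 fold change of -0.76. The lower ones include Slc5a4a (-2.36 ± 0.25), a relative of Slc5a1 that shares close sequence with its neighbour Slc5a4b so that the counting may not divide them well, and G6pc, a catalytic subunit of glucose-6-phosphatase (-2.16 ± 0.51). The mean of G6pc was 25.1 CPM in GRWT and 3.5 CPM in GRDim mice in muscle-rich libraries, but 4.35 and 3.21 CPM in muscle-poor ones, where it was not called (-0.52, adjusted p = 0.713). The one higher gene was Slc2a1 (0.38 ± 0.09), the glucose carrier of most cells, which was not called in the muscle-poor class by itself (0.26, adjusted p = 0.267). Zinc in GRDim mice raised 7 of the 15 and lowered none, with a median of 0.33, led by G6pc (1.90 ± 0.49) and Slc5a4b (1.39 ± 0.35). By edgeR in muscle-poor libraries alone neither gene passed (adjusted p of 0.0581 and 0.266). On zinc, 5 were lower in GRDim mice, among them Slc5a4a (-1.31 ± 0.25) and Slc5a4b (-1.19 ± 0.35).

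Of 18 other genes of peptide and amino acid handling, 12 were lower and 0 higher in GRDim mice on water (median -0.47). Slc7a8, a basolateral amino acid exchanger, fell by 1.03 on the log2 scale, and Mep1a, a brush-border metalloprotease, by 1.00, from a mean of 2106.3 to 844.3 CPM in muscle-rich and of 1774.1 to 1263.8 CPM in muscle-poor libraries. Slc7a8 was called within the muscle-rich class (-1.44, adjusted p = 1.21e-04) and not within the muscle-poor class (-0.43, adjusted p = 0.208). Zinc in GRDim mice raised 8 of the 18 (median 0.23), with Slc6a20a, a proline carrier, at 0.72 ± 0.16 and Mep1a at 0.65 ± 0.13. Within the muscle-poor class Mep1a was called by edgeR (0.60, adjusted p = 0.0155) and Slc6a20a was not (0.51, adjusted p = 0.261). On zinc 8 remained lower in GRDim mice, including Slc6a20a (-0.70 ± 0.18) and Slc7a8 (-0.68 ± 0.19).

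The 18 tested genes of sodium, chloride and bicarbonate exchange, out of 19 listed, were less one-sided, with 5 lower and 2 higher in GRDim mice on water (median -0.11). Pdzk1, a scaffold that binds Slc9a3 and Slc26a3, fell by 1.43 ± 0.21 on the log2 scale, and Slc26a6, another chloride/bicarbonate exchanger, fell by 0.72 ± 0.13. Car4, a membrane carbonic anhydrase, was higher beside Slc9a3 (0.59 ± 0.20). Within the muscle-poor class neither Car4 (0.12, adjusted p = 0.787) nor Slc26a6 (-0.30, adjusted p = 0.0763) was called on water, against 0.98 and -1.02 in the muscle-rich class, where both were. Zinc in GRDim mice raised 3, Pdzk1 (0.90 ± 0.20) and Slc26a6 (0.65 ± 0.12) among them, and lowered 2, Car4 (-0.97 ± 0.19) among them.

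Of the 11 tested partners of Cftr in chloride secretion, out of 12, 7 were lower and 1 was higher in GRDim mice on water (median -0.39). Guca2b, which encodes the peptide uroguanylin that drives Cftr through cyclic GMP, fell by 1.11 ± 0.14, and Clca4a, a Clca family gene with close copies, fell by 0.95 ± 0.13, while the potassium channel gene Kcnn4 was higher (0.35 ± 0.08). Zinc in GRDim mice raised 6 of the 11, with Clca4a at 0.47 ± 0.12 and Guca2b at 0.42 ± 0.13. Within the muscle-poor class Guca2b was called by edgeR (0.33, adjusted p = 0.0429) and Clca4a was not (0.18, adjusted p = 0.554). Clcn2, a chloride channel (0.29 ± 0.06), was the only gene of all these lists called for zinc in GRWT mice. In muscle-rich libraries alone it missed the threshold by edgeR (0.32, adjusted p = 0.07), and the muscle-poor class gave 0.24. On zinc, 3 were lower in GRDim mice, with Guca2b at -0.85 ± 0.14 and Prkg2, the cyclic GMP-dependent kinase of the brush border, at -0.49 ± 0.13.

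For Scnn1a itself nothing was called, but 4 of the 9 tested partner genes of the sodium channel, out of 11, were lower and 1 was higher in GRDim mice on water (median -0.22). Sgk1, a kinase induced by corticosteroids that keeps the channel at the surface, fell by 1.38 ± 0.34, from a mean of 312.6 to 80.2 CPM in muscle-rich libraries. In muscle-poor libraries its means were 153.2 and 129.6 CPM, and it was not called there (-0.34, adjusted p = 0.781). With zinc in GRDim mice Sgk1 rose by 1.70 ± 0.32, to means of 240.6 CPM in muscle-rich and 431.5 CPM in muscle-poor libraries; the muscle-poor class by itself missed the threshold (adjusted p = 0.107). Nr3c2, the mineralocorticoid receptor, fell by 0.46 ± 0.08 on the log2 scale with genotype, and Tmprss4, a protease, was higher (0.23 ± 0.06), though not in the muscle-poor class by itself (0.12, adjusted p = 0.529). Zinc in GRDim mice called 3 higher, Spint2 (0.19 ± 0.06) among them, and Tmprss4 lower (-0.22 ± 0.06). Of 10 genes of the brush-border scaffold, 6 were lower in GRDim mice on water (median -0.21), with Cdhr2 at -0.46 ± 0.07 and Ezr at -0.36 ± 0.07, and 2, Myo7b (0.28 ± 0.07) and Cdhr2 (0.24 ± 0.07), were raised by zinc in GRDim mice. For genotype on zinc, the exchange list had 0 genes called lower and 1 higher of 18 (median -0.06), and the partners of Scnn1a (0 of 9, median -0.08) and the scaffold (0 of 10, median 0.03) had no call by edgeR. None of the lists had a member called for the interaction by edgeR.

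**Figure D5:**
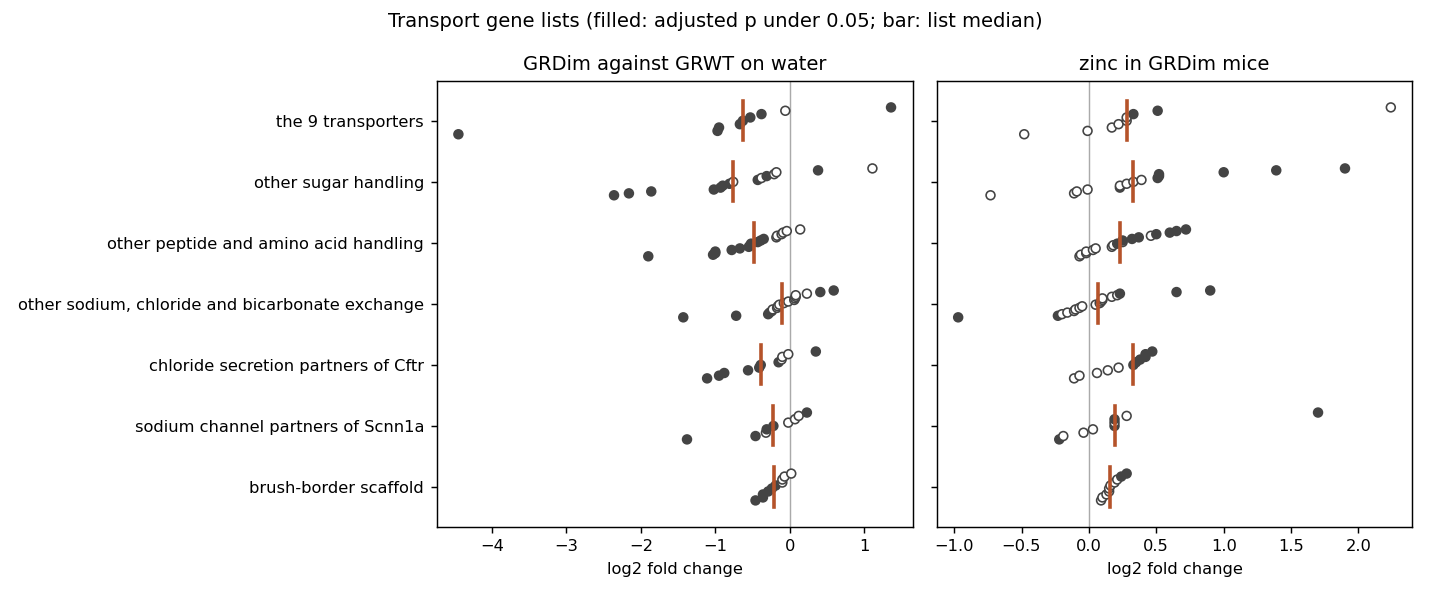
Log2 fold changes (x axis) of each tested gene in the 9 transporters and 6 further transport lists (y axis), for genotype on water (left) and zinc in GRDim mice (right); filled points passed an adjusted p of 0.05 and bars mark list medians. The medians lie left of 0 on the left, from -0.76 to -0.11, and right of 0 on the right, from 0.07 to 0.33.

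For each member, the gene outside all lists with the most similar pattern was sought by the Pearson correlation of log2 CPM over the 12 muscle-rich libraries, as a description over 16717 genes. These libraries share the genotype groups, which set much of each correlation. Slc9a3 was most like Saa1, an acute-phase protein gene (r = 0.987, and 0.523 over the 9 muscle-poor libraries), and Slc15a1 was most like Apoa1, an apolipoprotein gene (0.983 and 0.728). Slc26a3 matched Ube2q1 (0.993 and 0.820), Cftr matched Rnase4 (0.984 and 0.642) and Slc2a2 matched Selenom (0.982 and 0.282). For Slc6a19 with Trpm4 (0.993 and -0.280), Slc2a5 with Chmp5 (0.982 and -0.279), Slc5a1 with Mall (0.951 and -0.838) and Scnn1a with Ethe1 (0.862 and -0.224), r was negative over the muscle-poor libraries.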

How the data were processed

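RNA of the small intestine was sequenced as stranded single-end libraries. Per the labels and the study's methods, the authors trimmed reads with Trimmomatic, mapped them to mm10 with HISAT2 2.0.4 and counted them per gene with featureCounts; the deposited values are raw counts, not normalized, and the strand setting is not given in the sources used here. Gene names and exon lengths came from GENCODE vM21 (54809 of 54838 identifiers matched). CPM is the count scaled to the library total; CPM per kilobase divides it by merged exon length. Differences were tested with edgeR 4.0.16 in R 4.3.3 (TMM, filterByExpr on condition and muscle class, robust quasi-likelihood F test) on 21 libraries with condition and muscle class as terms, with Benjamini-Hochberg adjustment over all genes tested and a call at an adjusted p under 0.05. Each SE is the log2 fold change over the root of F. Groups came from the labels and the muscle class from Myh11, and GRWT zinc ileum replicate 3 was reported apart. The members, lists and rules were chosen with earlier results of these data known. Genes other than the members were named by a rule: up to 2 per direction, list and comparison with the largest change among called genes of at least 1 CPM, and 1 most similar gene per member. One gene this rule names is not reported here. Alternatives were other covariates, each class alone, DESeq2 1.42.0, other scalings and filters, a replicate block and leaving out single libraries. The procedure was tested on simulated data. Promoters came from RefSeq. The drinking water groups are compared as labelled, and other data of the study were not analysed here.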

Additional observations from a re-analysis of the deposited data

Results flagged for a closer look

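Each member was examined for a library far from the others of its condition by Dixon's test, in 36 groups of 5 or 6 libraries (9 genes in 4 conditions). Chance flags about 1 group in 20 where each group is drawn from a single population. These groups mix both muscle classes, so that rate need not hold here. Of the 7 groups with such a library, 6 hold GRWT zinc ileum replicate 3 as the highest of the GRWT zinc libraries. These 6 flags are not independent, since all come from the library already set apart. It stood at 4763.9 CPM for Slc5a1 (the next library at 1810.1), 674.6 CPM for Slc2a2 (11.8), 224.6 CPM for Slc2a5 (35.6), 1128 CPM for Slc15a1 (608), 2055.4 CPM for Slc6a19 (1099.1) and 193.1 CPM for Slc9a3 (26.5). The remaining one is Slc2a2 in GRDim mice on water, where ileum replicate 1 had 0.593 CPM, which is 8 counts, and the next library 0.213 CPM, which is 3 counts.

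The genotype effect on water differed between muscle-rich and muscle-poor libraries for 2 members by a test of the difference itself with edgeR. It was larger in muscle-rich libraries for Slc9a3 by a log2 difference of 1.00 (adjusted p = 0.0383), and more negative there for Slc26a3 by -0.57 (adjusted p = 0.0221). The same test called 7.11% of all genes.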

How the results depend on the processing

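Of the 9 members called for GRDim against GRWT on water, the count of 8 fell to 5 with all 22 libraries, 1 with the tissue label in place of the muscle class, 3 in the muscle-poor libraries alone, 4 without the libraries with Car1 over 3 CPM (an alternative chosen after seeing the data) and 4 with a log2 fold change beyond 0.8 required as well; it was 8 in every fit that left out a single library. For zinc in GRDim mice, the count of 2 became 0 with all 22 libraries, with the tissue label in place of the class, in muscle-poor libraries alone, without the Car1 libraries and with the fold requirement, 1 under scaling by the epithelium markers and without a filter, and 4 with a separate mean for each condition and class and in muscle-rich libraries alone; leaving out single libraries gave 1 to 3. For GRDim against GRWT on zinc, 6 became 0 with the tissue label and in muscle-poor libraries alone, 2 without a filter and with the fold requirement, and 1 without the Car1 libraries, and 1 to 7 without a single library. Slc9a3 turned from 1.00 to -0.68 and -0.82 there in the fits that keep GRWT zinc ileum replicate 3. Fewer genes of any kind were called in some of these fits. With the tissue label, 19 genes in all were called for zinc in GRDim mice, against 1719 in the main fit. Muscle-poor libraries alone called 453 genes for genotype on water, against 5248, and hold 1 GRWT library on zinc. For most other alternatives the share of all genes is not given here. For the zinc by genotype interaction, 0 became 2 with DESeq2. Scaling by the epithelium markers moved the median of all genes by -0.16 for genotype on zinc. Of 1575 member values under alternatives, 1455 stayed on their side of the threshold without a called change of sign, 98 lost their call, 20 gained one and 2 changed sign. The causes were not tested.

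Replicate numbers did not pair the libraries: 8 of 23 same-numbered pairs correlated over 0.1 and 5 of 19 libraries were closest to their own number. The replicate block, fitted on the 19 numbered libraries, called 4 of the 9 for zinc in GRDim mice (4 without the block on the same libraries) and 2 for the interaction (0 without it), and of all genes it called 341 for the interaction, against 1 without the block on the same libraries.

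Counts of all genes called ranged over the alternatives from 16 to 219 for zinc in GRWT mice, 19 to 2914 for zinc in GRDim mice, 453 to 6165 for genotype on water and 19 to 2999 for genotype on zinc. Slc2a2 in GRDim mice is limited by depth.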
